A study of Mus musculus with 48 samples.

Results

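T cell clones whose TCRβ CDR3 carried a cysteine away from its ends were examined in bilateral tumors and draining lymph nodes (dLNs). A clone belonged to this class when its CDR3 had 10 or more residues and a cysteine at any position from 5 to the fifth residue from the end, with the conserved first cysteine counted as position 1. By this rule, 8981 of 959731 entries in the 48 clone lists belonged to the class (0.936%), which corresponded to 8354 of 744876 distinct clones. After each library was drawn to 6 reads per sorted cell, 7728 of 700174 distinct clones remained in the class, and these were used below. Before the draw, 45 of the 8354 clones of the class had more than 1 inner cysteine. In 35 of them the first residue was not a cysteine, and positions were counted from that residue. The germline cysteine that 98.4% of TRBV1 clones carried at position 3 lay outside the window and did not count.

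Lewis lung carcinoma (LLC) cells, a mouse lung cancer line, were inoculated subcutaneously on both sides of the back of female C57BL/6 mice (C57BL/6J in the methods of the study), labelled as 8 weeks of age, and T cells were sorted on day 13. From each of 4 mice, numbered 5 to 8, CD4+ and CD8+ T cells were taken from both tumors, each of which was divided into 2 fragments, and from both dLNs, giving 32 tumor and 16 dLN libraries. All cells were negative for an antibody injected into the blood stream shortly before sacrifice. The tumor samples comprised all CD4+ or CD8+ T cells, whereas the dLN samples comprised CD44hi cells only, so that the tissue and the CD44 gate cannot be told apart in any comparison of tumor with dLN. No tumor-free mice were among the samples. Drawn libraries held between 131070 and 2035380 reads and between 3613 and 47138 clones. Fragments and sides were pooled to 1 repertoire per mouse, and the mouse was the replicate (n = 4).

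The CDR3 of the TCRβ chain is the loop formed where a V, a D and a J segment are joined, with bases trimmed and added at each junction, and its middle part faces the peptide that an MHC molecule presents. Free cysteines are rare there. TCRs with a cysteine near the apex of the CDR3 are known to be enriched among self-reactive thymocytes, are rare in the conventional peripheral T cell pool, and are enriched among unconventional intraepithelial lymphocytes and their thymic precursors. These are background facts on the sequence feature, and reactivity was not measured in these samples.

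The CDR3 sequences of the largest inner-cysteine clones are shown from 5′ to 3′, with the inner cysteine codon in capitals, to place the cysteine in the clones that later values refer to. In CD8+ tumor repertoires, the largest such clone of each mouse, named by its V and J segments and its CDR3, was
TRBV1, TRBJ2-7, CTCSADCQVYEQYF, mouse 5: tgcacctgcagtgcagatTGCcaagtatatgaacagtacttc
TRBV12-1, TRBJ2-3, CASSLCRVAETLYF, mouse 6: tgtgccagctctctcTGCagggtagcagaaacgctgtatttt
TRBV17, TRBJ2-1, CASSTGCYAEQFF, mouse 7: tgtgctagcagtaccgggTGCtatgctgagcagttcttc
TRBV12-2, TRBJ2-4, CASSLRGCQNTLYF, mouse 8: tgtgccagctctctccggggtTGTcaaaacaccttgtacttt

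In CD4+ tumor repertoires the corresponding clones, shown because they include the most frequent inner-cysteine clone of the series, were
TRBV29, TRBJ2-3, 16 residues, mouse 5: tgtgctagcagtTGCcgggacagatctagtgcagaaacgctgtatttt
TRBV13-1, TRBJ1-2, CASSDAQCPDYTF, mouse 6: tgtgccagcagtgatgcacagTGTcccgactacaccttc
TRBV5, TRBJ2-7, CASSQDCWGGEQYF, mouse 7: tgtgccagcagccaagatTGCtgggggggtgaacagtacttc
TRBV4, TRBJ2-7, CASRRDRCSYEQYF, mouse 8: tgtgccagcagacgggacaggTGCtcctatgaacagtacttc

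By the positions in the deposited alignments, no base of the codon came from a V, D or J segment in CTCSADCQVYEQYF and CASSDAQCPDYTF. Only its last base was from D in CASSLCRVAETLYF, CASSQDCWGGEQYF and the TRBV29 clone, and only its last base was from J in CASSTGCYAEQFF. Its last 2 bases were assigned to J in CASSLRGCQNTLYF and the whole codon in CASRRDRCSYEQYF, although the germline start of Trbj2-7, printed below, holds no TGC.
Trbj2-7: ctcctatgaacagtacttcg

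In CD8+ clones, the J segments with the highest share of inner-cysteine clones were Trbj2-4 and Trbj2-3 of the Tcrb locus, at chr6:41543362-41543410 and chr6:41543223-41543271 on the plus strand of GRCm38. Their first 20 germline bases, from the GENCODE M21 transcripts, are shown because both begin with an A followed by GT, in capitals, which becomes the end of a TGT codon when the A is lost and a T is joined in front.
Trbj2-3: aGTgcagaaacgctgtattt
Trbj2-4: aGTcaaaacaccttgtactt

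Inner-cysteine clones were most frequent among CD8+ tumor clones. They made up 1.86%, 2.13%, 2.23% and 2.02% of the distinct CD8+ tumor clones of mice 5 to 8, a mean of 2.06% ± 0.159 (SD, n = 4). In the CD8+ CD44hi dLN cells of the same mice they made up 0.298%, 0.264%, 0.250% and 0.219%, a mean of 0.258% ± 0.0329 (SD, n = 4). The lowest tumor value was therefore far above the highest dLN value, and the ratio of tumor to dLN was 8.12 ± 1.35 (SD, n = 4), with a range from 6.23 to 9.23. In counts, 6883 of 325348 CD8+ tumor clones and 719 of 280531 CD8+ dLN clones belonged to the class, summed over the mice. The difference of 1.80 percentage points held in 4 of 4 mice (exact permutation test over all 70 splits, two-sided p = 0.02857, adjusted p = 0.0357).

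Among CD4+ clones the class was rarer in both tissues. The share of distinct CD4+ tumor clones was 0.162%, 0.234%, 0.300% and 0.229% in mice 5 to 8, a mean of 0.231% ± 0.0563 (SD, n = 4), from 203 clones of 82587. In CD4+ CD44hi dLN cells it was 0.0827%, 0.0982%, 0.0525% and 0.0944%, a mean of 0.0820% ± 0.0207 (SD, n = 4), from 89 clones of 107340. No CD4+ dLN value reached the lowest CD4+ tumor value, and the tumor share was 3.12 ± 1.74 times the dLN share (SD, n = 4; exact permutation p = 0.02857, adjusted p = 0.0357). This call was lost when only cysteines within 1 residue of the CDR3 centre were counted (0.0751% in tumors and 0.0329% in dLNs, exact permutation p = 0.2). It held at smaller differences with the window from position 6 (0.1201% and 0.0432%) and with means over libraries (0.175% and 0.0791%).

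The subsets differed within each tissue as well. In tumors the CD8+ share of distinct clones was 9.20 ± 1.66 times the CD4+ share, and in dLNs it was 3.34 ± 1.09 times the CD4+ share (SD, n = 4). In both tissues all 4 CD8+ values lay above all 4 CD4+ values (exact permutation p = 0.02857 and adjusted p = 0.0357 for each). The CD4+ minus CD8+ difference was larger in size in tumors, at -1.83 percentage points, than in dLNs, at -0.176 percentage points, and the difference between these differences was -1.65 percentage points (exact permutation p = 0.02857, adjusted p = 0.0357).

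Weighted by reads, the class was a smaller part of every repertoire. It held 0.289%, 0.312%, 0.656% and 0.272% of CD8+ tumor reads in mice 5 to 8, a mean of 0.382% ± 0.183 (SD, n = 4). Mouse 7 stood apart from the other mice, which lay between 0.272% and 0.312%, and it also had the most CD8+ tumor clones, 143007 against 41333 to 72306. In CD8+ dLN reads the share was 0.203%, 0.220%, 0.180% and 0.140%, a mean of 0.186% ± 0.0343 (SD, n = 4). The tumor values remained above the dLN values (difference of 0.196 percentage points, exact permutation p = 0.02857, adjusted p = 0.0357), and the difference was 0.103 percentage points without mouse 7.

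In CD4+ reads, the share was 0.0353%, 0.143%, 0.0461% and 0.0541% in the tumors of mice 5 to 8, and 0.0215%, 0.0521%, 0.0279% and 0.0667% in the dLNs. The groups overlapped, since mouse 8 was higher in the dLNs than in the tumors, and the difference of 0.0275 percentage points did not pass the test (exact permutation p = 0.4, adjusted p = 0.4). The high value of mouse 6 came in part from the TRBV13-1 clone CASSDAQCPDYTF, which held 0.0688% of the reads and left 0.0740% for all other inner-cysteine clones of that mouse. When the reads of the largest clone of the class in each mouse and tissue were not counted, a setting added after the data had been seen, the CD4+ tumor share was 0.0488% ± 0.0184 and the dLN share 0.0213% ± 0.00903 (SD, n = 4), higher in the tumors of 4 of 4 mice (exact permutation p = 0.02857). This setting takes out clones by the reads that are compared. In mouse 8 the dLN share fell from 0.0667% to 0.0279% and the tumor share from 0.0541% to 0.0477%. In mouse 6 the tumor share fell from 0.143% to 0.0740% and the dLN share from 0.0521% to 0.0300%. The result under this setting is therefore a description only. The CD8+ reads share was above the CD4+ share in 4 of 4 mice in each tissue, with CD4+ minus CD8+ differences of -0.313 percentage points in tumors and -0.144 in dLNs (exact permutation p = 0.02857, adjusted p = 0.0357). For reads, the difference between the tissues in this subset difference was -0.169 percentage points and did not pass the test (exact permutation p = 0.0571, adjusted p = 0.0602), and without mouse 7 it was -0.0725 percentage points. It passed at -0.172 percentage points when the largest clones were not counted (exact permutation p = 0.02857), a setting with the limit given above.

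**Figure D1:**
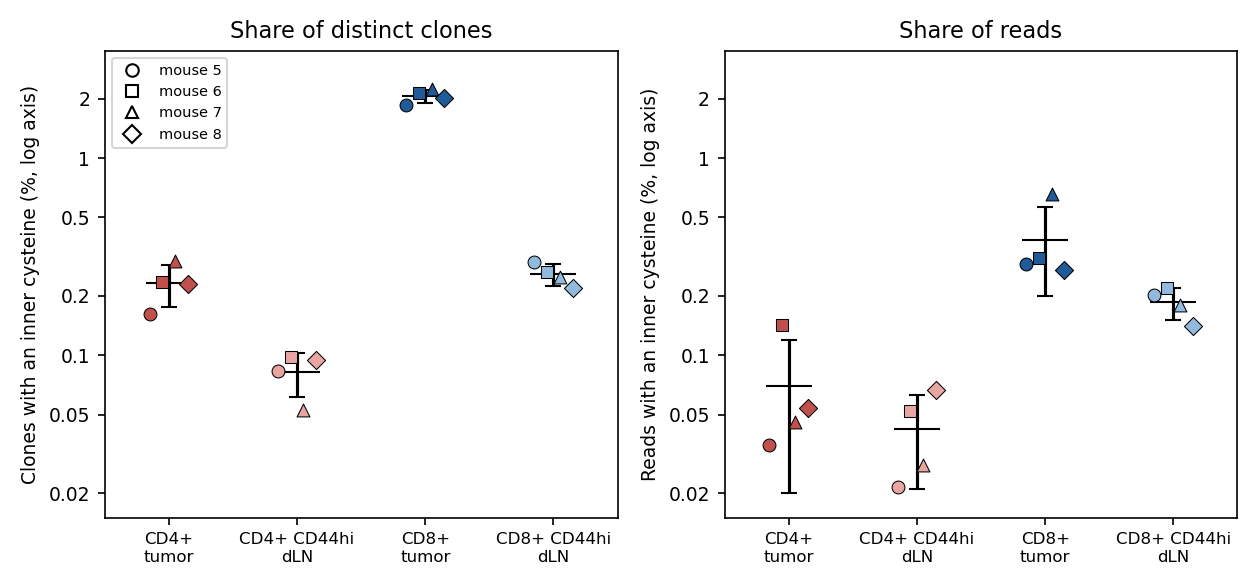
Share of distinct clones (left) and of reads (right) that carried an inner cysteine, in percent on a log axis, for the 4 sorted groups. Each symbol is 1 mouse, bars are the mean and SD (n = 4), and the 4 CD8+ tumor values of the left panel, 1.86% to 2.23%, lie above all other groups.

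The share of reads was below the share of distinct clones in all 4 mice of each group. In CD8+ tumors the reads share was 0.183 ± 0.0750 of the clone share (SD, n = 4; difference -1.68 percentage points, exact permutation p = 0.02857, adjusted p = 0.0357). In CD4+ tumors it was 0.304 ± 0.206 of the clone share (difference -0.162 percentage points, exact permutation p = 0.02857, adjusted p = 0.0357). In the dLNs the corresponding ratios were 0.719 ± 0.0826 for CD8+ and 0.507 ± 0.185 for CD4+ cells (SD, n = 4), and the differences of -0.0720 and -0.0399 percentage points did not pass the test (exact permutation p = 0.0571, adjusted p = 0.0602 for each). With the reads as deposited both passed, at -0.0944 in CD8+ and -0.0673 percentage points in CD4+ dLNs, and with at least 6 reads per clone and library they were -0.0399 and -0.00598. The CD8+ dLN difference also passed under 3 further settings, and the CD4+ tumor difference did not pass under 3 other settings.

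In CD8+ tumors, inner-cysteine clones were scarcer among large clones than among small ones. In CD8+ tumors they made up 2.25% ± 0.175 of clones with 1 to 5 reads, 2.05% ± 0.172 with 6 to 30 reads, 1.28% ± 0.351 with 31 to 100 reads and 0.144% ± 0.212 with over 100 reads (SD, n = 4), the last being 6 of 2689 clones. Over 100 reads the share was 0.450% in mouse 7, 0.127% in mouse 8 and 0 in mice 5 and 6. Clones with at most 100 reads held 20.6% ± 8.38 of CD8+ tumor reads, and the class held 1.81% ± 0.143 of the reads within them (SD, n = 4). Mouse 7 did not stand apart there, with 1.94% against 1.63% to 1.91% in the other mice, whereas such clones held between 15.2% and 33.1% of all reads over the mice. In CD8+ dLNs the share by class went from 0.339% ± 0.0712 in the smallest clones to 0.0933% ± 0.0781 at 31 to 100 reads (SD, n = 4). Over 100 reads, 0 of 468 clones belonged to the class, which allows up to 0.641%, above the 0.258% of all CD8+ dLN clones. CD4+ tumors had 0.351% ± 0.101 among the smallest clones and 0.0478% ± 0.0727 over 100 reads (SD, n = 4). The latter was 4 of 8777 clones, with 0.154% in mouse 6, 0.0375% in mouse 8 and 0 in mice 5 and 7. CD4+ dLNs did not follow this order, with 0.161% ± 0.0412 among the smallest clones, 0.0481% ± 0.0119 at 6 to 30 reads, 0.0168% ± 0.0194 at 31 to 100 reads and 0.0732% ± 0.0854 over 100 reads (SD, n = 4), the last being 2 of 2647 clones and near the 0.0820% of all CD4+ dLN clones. The median number of reads of an inner-cysteine clone was 6 to 8 in the CD8+ tumors of the 4 mice, against 7 to 9 for all other clones, so that most clones of both kinds were small.

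**Figure D2:**
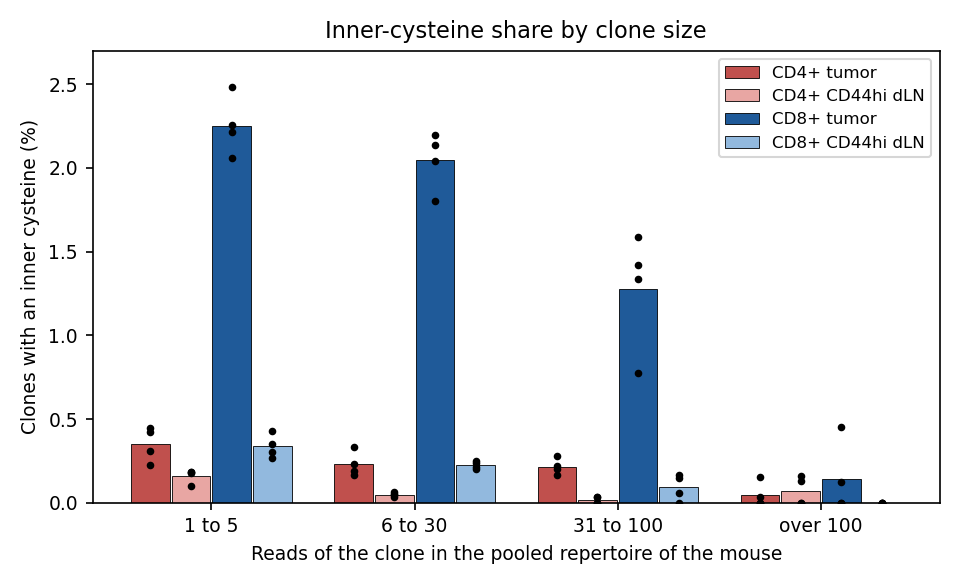
Share of distinct clones with an inner cysteine, in percent, by the number of reads of the clone in the pooled repertoire of the mouse. Bars are means over 4 mice and dots are single mice, and the CD8+ tumor bars go from 2.25% in the smallest clones to 0.144% above 100 reads.

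None of the 100 largest clones of any mouse carried an inner cysteine, in any of the 4 groups (0 of 400 clones per group, which allows up to 0.75%). This limit was below the 2.06% of all CD8+ tumor clones. It was above the shares of all clones in CD4+ tumors (0.231%), CD8+ dLNs (0.258%) and CD4+ dLNs (0.0820%), so that the 0 shows no difference there. Among the 1000 largest clones of each mouse, 17 of 4000 CD8+ tumor clones did (0.425%, against 2.06% of all clones of that group), 2 of 4000 in CD4+ tumors (0.05%, against 0.231%) and 1 of 4000 in CD8+ dLNs (0.025%, against 0.258%). In CD4+ dLNs it was 3 of 4000, or 0.075%, close to the 0.0820% of all clones. The largest inner-cysteine clone of the CD8+ tumors, by reads share, was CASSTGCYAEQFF in mouse 7, which held 0.00446% of left tumor reads (95% Wilson interval 0.00286% to 0.00682%) and 0.00261% of right tumor reads (0.00152% to 0.00463%), with 0 reads in either dLN, where the upper limits were 0.00633% (left dLN) and 0.00431% (right dLN). The clones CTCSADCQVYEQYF of mouse 5 and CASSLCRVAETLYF of mouse 6 were found only in the left tumor, at 0.00497% and 0.00247% of reads, and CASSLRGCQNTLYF of mouse 8 only in the right tumor, at 0.00329%. These 3 clones had 0 reads in the dLNs of their mouse, but the upper 95% Wilson limits there, 0.00464% to 0.00747%, were above their shares in the tumor, so that a presence at the same level was not detectable at this depth. Each of these intervals rests on cell numbers estimated as reads divided by 6 and covers counting error only.

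Some CD4+ clones of the class were found at several sites. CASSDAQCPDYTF of mouse 6 held 0.0765% of left tumor reads (95% Wilson interval 0.0627% to 0.0924%) and 0.0600% of right tumor reads (0.0476% to 0.0760%), with 3 reads in the right dLN and 0 in the left. It ranked 221 by size among the CD4+ tumor clones of that mouse. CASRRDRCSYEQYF of mouse 8, the largest in both tissues of that mouse, held 0.0375% and 0.0397% of the reads in the left and right dLN and 0.00981% and 0.00361% in the left and right tumor. The TRBV16 clone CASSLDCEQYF, the largest in the CD4+ dLNs of mouse 6, was likewise found at all 4 sites, from 0.00449% in the right dLN to 0.0371% in the left dLN. The TRBV13-3 clone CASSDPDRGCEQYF of mouse 7 was found in both dLNs and in the left tumor, and the TRBV29 clone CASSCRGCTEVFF of mouse 5, with inner cysteines at positions 5 and 8, only in the left dLN. In CD8+ dLNs the largest were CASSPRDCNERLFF, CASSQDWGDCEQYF, a TRBV4 and TRBJ2-7 clone of 16 residues, and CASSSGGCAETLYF in mice 5 to 8, each with 0 reads at the 3 other sites of its mouse. The largest CD4+ tumor clones of mice 5 and 7 were found at fewer sites. That of mouse 5 was found in the right tumor only, at 0.0140% of reads, with upper limits of 0.00874% in the left and 0.0136% in the right dLN. That of mouse 7, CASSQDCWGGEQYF, was found in both tumors at 0.00354% and 0.00239%, with 0 reads in the dLNs. Its upper limits in the left and right dLN, 0.00905% and 0.00733%, were above these shares, so that a presence at the same level was not detectable. Its pooled tumor share of 0.00297% was below the 0.00353% of the largest CD8+ clone of the same mouse. None of these largest clones, by nucleotide sequence, had a read in the other T cell subset of the same mouse or in another mouse.

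Inner-cysteine clones were shared less than other clones of 10 or more residues between the samples of a mouse. Of the CD8+ tumor clones, 3.07% ± 0.952 of the class were in both tumors against 7.67% ± 1.24 of others, and 1.07% ± 0.201 against 7.13% ± 0.882 were in a dLN of the mouse (SD, n = 4). In counts, 240 of 6883 CD8+ tumor clones of the class were in both tumors and 69 were in a dLN. For CD4+ tumor clones these values were 5.87% ± 1.98 against 23.5% ± 0.602 for both tumors and 6.25% ± 3.17 against 21.1% ± 2.83 for a dLN (SD, n = 4). All 4 differences held in 4 of 4 mice (exact permutation p = 0.02857, adjusted p = 0.0357 for each). Since small clones are found again less often, the others were also weighted to the read classes of the inner-cysteine clones. The others were then at 6.05% and 6.49% in CD8+ cells and at 15.1% and 15.8% in CD4+ cells. Every difference kept its direction at a smaller size (exact permutation p = 0.02857 for each). In CD4+ cells it was -9.23 percentage points for both tumors and -9.59 for a dLN, and in CD8+ cells -2.99 for both tumors.

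Both fragments of a tumor held 1.67% ± 0.813 of the CD8+ clones of the class found in that tumor, against 5.86% ± 0.696 of others, and 7.02% ± 3.36 against 23.1% ± 0.546 in CD4+ cells (SD, n = 4). Of 6883 CD8+ tumor clones of the class, 7 were also found among the CD4+ tumor clones of the same mouse, a mean of 0.0733% ± 0.0851 against 0.945% ± 0.217 of others (SD, n = 4). The same 2 values from the side of the CD4+ tumor clones were 2.49% ± 2.92 and 3.59% ± 1.41. In the dLNs 0 of 719 CD8+ and 0 of 89 CD4+ clones of the class were found in the other subset, which allows up to 0.417% and 3.37%.

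Among the CD8+ tumor clones that were also found in a dLN, the share with an inner cysteine was 0.298%, 0.263%, 0.336% and 0.351% in mice 5 to 8, a mean of 0.312% ± 0.0396, and it was 2.19% ± 0.156 among the CD8+ tumor clones not found in a dLN (SD, n = 4). Among CD4+ tumor clones these means were 0.0613% ± 0.0151 and 0.275% ± 0.0669 (SD, n = 4). The clones found in a dLN are by this choice a subset of the dLN clones, and the values restate the lower sharing of the class with the dLNs, so they are given as a description. This division was added after the data had been seen.

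Sharing between mice was low as well. With tumor and dLN clones of a mouse pooled, the same V, J and CDR3 nucleotide sequence was found in another mouse for 2.22% ± 0.650 of CD8+ clones of the class against 11.3% ± 1.497 of others (SD, n = 4; exact permutation p = 0.02857, adjusted p = 0.0357). Counted per tissue, the CD8+ class held 6883 tumor and 719 dLN clones, and all CD8+ clones were 325348 and 280531. For CD4+ these counts were 203 and 89, against 82587 and 107340. Tissue and class are therefore mixed in this comparison, and tumor clonotypes alone are counted at the end of this paragraph. In CD4+ cells 0 of 282 clones of the class were found in another mouse, which allows up to 1.06%, against 5.59% ± 0.384 of others (SD, n = 4; exact permutation p = 0.02857, adjusted p = 0.0357). With clones defined by V, J and CDR3 amino acids, these values were 6.83% against 25.9% in CD8+ and 0% against 16.4% in CD4+ cells, and the CD8+ tumor clones found in a dLN were 1.24% against 12.5%. Counting tumor clonotypes over the mice, 174 of 6444 CD8+ tumor clonotypes of the class were in the tumors of 2 mice, 16 in those of 3 and 1 in those of 4, together 2.96% against 9.39% of other clonotypes. None of the CD4+ tumor clonotypes of the class was in more than 1 mouse, which allows up to 1.49%, against 5.33% of others.

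Of the CD8+ clonotypes of the class found in 3 or 4 mice, the 5 taken by number of mice and then by mean reads share were each encoded by 2 to 4 nucleotide sequences. A pair from each of the first 2, named by segments, is shown because different codons encoded the same CDR3.
TRBV12-2, TRBJ2-4, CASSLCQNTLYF, first sequence: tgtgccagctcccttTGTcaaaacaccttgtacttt
TRBV12-2, TRBJ2-4, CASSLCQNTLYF, second sequence: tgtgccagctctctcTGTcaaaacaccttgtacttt
TRBV15, TRBJ2-4, 16 residues, first sequence: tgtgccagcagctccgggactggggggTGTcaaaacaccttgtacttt
TRBV15, TRBJ2-4, 16 residues, second sequence: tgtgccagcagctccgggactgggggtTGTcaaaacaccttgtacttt

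The clonotype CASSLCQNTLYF was the one found in all 4 mice, with 13, 2, 164 and 24 reads in the CD8+ tumors of mice 5 to 8. The 2 reads in mouse 6 are fewer than the 6 drawn per sorted cell, so that its presence there is uncertain. The TRBV15 clonotype was found in mice 5, 6 and 8 with 33, 56 and 32 reads. The other 3 were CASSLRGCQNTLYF with TRBV12-2 and TRBJ2-4, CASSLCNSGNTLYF with TRBV12-1 and TRBJ1-3, and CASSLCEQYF with TRBV12-2 and TRBJ2-7, each in 3 mice. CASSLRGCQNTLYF was also the largest of mouse 8, with 103 reads, against 11 and 5 reads in mice 5 and 7, where other codons encoded it.

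J segment use set inner-cysteine clones apart from other CD8+ clones. Over tumors and dLNs pooled, 11 of 12 J segments (91.7% of those tested) differed in use between the class and others, 4 higher and 7 lower (exact permutation p = 0.02857 each, adjusted p = 0.0312). Uses within the class sum to a fixed total, so that the lower use of some segments follows in part from the higher use of others and is no separate result. TRBJ2-4 was used by 16.7%, 21.2%, 20.02% and 18.4% of the clones of the class in mice 5 to 8 and by 8.14% to 8.28% of others. TRBJ2-3 was used by 17.4%, 17.5%, 16.7% and 19.3% of the class and by 8.35% to 8.68% of others. Seen from the segment, 2.82% ± 0.796 of TRBJ2-4 clones and 2.52% ± 0.478 of TRBJ2-3 clones carried an inner cysteine, against 0.691% ± 0.133 of TRBJ1-6 and 0.736% ± 0.0987 of TRBJ1-4 clones (SD, n = 4), the lowest 2. TRBJ1-5 and TRBJ2-2 were the other segments used more by the class, and TRBJ1-3 was the one that did not pass (3.64% of the class and 4.26% of others, adjusted exact permutation p = 0.0571). With tumor clones only, a setting added after the data had been seen, 11 of 12 segments also passed, and 4.92% ± 0.657 of TRBJ2-4 and 4.31% ± 0.368 of TRBJ2-3 clones carried an inner cysteine (SD, n = 4).

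In CD4+ clones no J segment passed (0 of 12, 0% of those tested), with 3 of 12 at an unadjusted exact permutation p of 0.02857 and an adjusted p of 0.114. These were TRBJ2-7, used by 30.7% ± 5.87 of the class and 18.9% ± 0.199 of others, and, with lower use in the class, TRBJ1-3 and TRBJ1-5. The highest shares of inner-cysteine clones were in TRBJ2-7 and TRBJ2-3, at 0.249% ± 0.0398 and 0.208% ± 0.0969, and the lowest in TRBJ1-5 and TRBJ1-3, at 0.0699% ± 0.0643 and 0.0759% ± 0.0418 (SD, n = 4). TRBJ2-4, highest in CD8+ cells, was used by 9.05% ± 5.39 of the CD4+ class and 9.78% ± 0.197 of others (SD, n = 4). With CD4+ tumor clones only, TRBJ2-7 was highest at 0.345% ± 0.0420, followed by TRBJ2-1 at 0.294% ± 0.0959 and TRBJ2-3 at 0.292% ± 0.242 (SD, n = 4), and 4 of 12 segments had an unadjusted exact permutation p of 0.02857 with an adjusted p of 0.0857. Whether J use of the class differed between CD4+ and CD8+ cells was not tested.

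**Figure D3:**
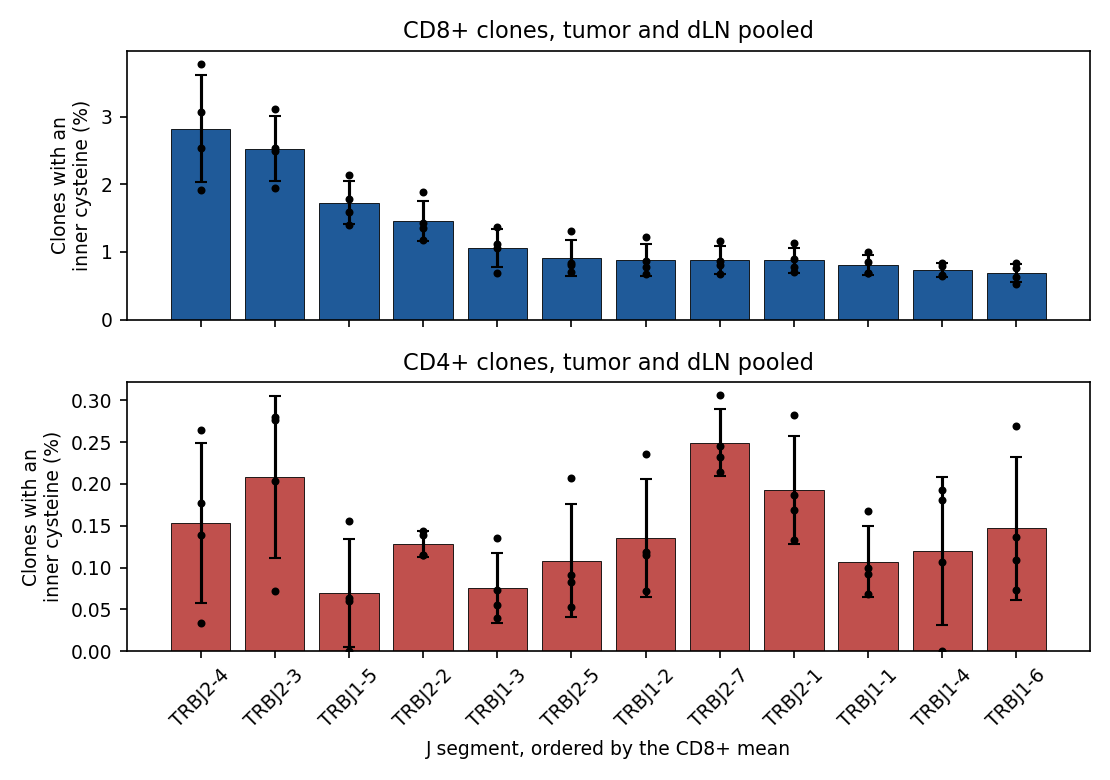
Share of distinct clones of each J segment that carried an inner cysteine, in percent, for CD8+ (upper) and CD4+ (lower) clones of tumors and dLNs pooled. Bars and error bars are the mean and SD over 4 mice and dots are single mice, and TRBJ2-4 (2.82%) and TRBJ2-3 (2.52%) are highest in CD8+ clones.

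V segment use was tested in the same way. In CD8+ clones 0 of 19 V segments passed after adjustment (0% of those tested), with 10 of 19 at an unadjusted exact permutation p of 0.02857 and an adjusted p of 0.0543, the smallest that this family of 19 gave, so that the call turned on the adjustment, and 13 and 12 segments passed with amino acid clonotypes and with another random draw. Among V segments with at least 1% of clones, the highest shares of inner-cysteine clones were 2.25% ± 0.746 in TRBV20 (chr6:41188273-41188977), 1.70% ± 0.273 in TRBV15 and 1.55% ± 0.403 in TRBV19. The lowest were 0.662% ± 0.0949 in TRBV1 (chr6:40891229-40891885), 0.876% ± 0.293 in TRBV13-3 and 0.876% ± 0.193 in TRBV29 (SD, n = 4; GRCm38, plus strand). In CD4+ clones 0 of 19 passed (0% of those tested), with 1 of 19 at an unadjusted exact permutation p of 0.02857. There TRBV29 (chr6:41271394-41271881) was highest at 0.363% ± 0.246, followed by TRBV15 at 0.244% ± 0.143 and TRBV14 at 0.186% ± 0.161. TRBV3, TRBV31 and TRBV5 were lowest, at 0.0764% ± 0.0307, 0.0849% ± 0.0801 and 0.0868% ± 0.0908 (SD, n = 4). Tumors and dLNs are pooled in these ranks. With tumor clones only, TRBV20 and TRBV15 were again highest in CD8+ cells, at 3.88% ± 0.573 and 2.93% ± 0.0990, and TRBV1, TRBV13-3 and TRBV3 were lowest, at 1.13% ± 0.164, 1.49% ± 0.264 and 1.59% ± 0.189, while TRBV29 stood at 1.66% ± 0.175 (SD, n = 4). In CD4+ tumor clones TRBV29 and TRBV15 were again highest, at 0.435% ± 0.292 and 0.364% ± 0.266, but the lowest were TRBV12-1, TRBV12-2 and TRBV3, at 0.0623% ± 0.1247, 0.0767% ± 0.153 and 0.0863% ± 0.0671 (SD, n = 4), with TRBV31 and TRBV5 at 0.115% and 0.159%.

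The cysteine lay in the middle of the CDR3 in CD8+ clones. Of 6858 inner cysteines in CD8+ tumor clones, each clone counted once over the mice, positions 6 to 10 held 92.7%, position 9 alone held 22.6%, and position 5 held 3.92%. Positions 6 to 10 made up much of the window by the rule itself, so that the shares per position below take account of this. A cysteine at position 9 was present in 0.571% of the CD8+ tumor clones long enough to have one in the window (95% Wilson interval 0.544% to 0.600%), and one at position 5 in 0.0864% (0.0767% to 0.0974%). In CD8+ dLN clones these values were 0.0649% (0.0552% to 0.0763%) and 0.0217% (0.0168% to 0.0281%). The excess of tumor over dLN was thus seen at both positions in the clones of the 4 mice together. These intervals cover counting error only, and the spread of these rates between mice was not computed. Within 1 residue of the CDR3 centre lay 66.9% ± 2.26 of the inner cysteines of CD8+ tumors and 54.5% ± 4.82 of those of CD8+ dLNs (SD, n = 4), against 40.8% and 41.6% of the window positions.

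The positions in CD4+ clones are given beside these, and the difference between the subsets was not tested. Position 5 was the most common in CD4+ tumors, with 24.1% ± 3.44 of the inner cysteines (SD, n = 4), followed by position 8 and then by positions 7 and 9. The cysteine lay within 1 residue of the centre in 29.1% ± 17.98 of CD4+ tumor and 38.5% ± 5.65 of CD4+ dLN cases (SD, n = 4), against 41.9% and 43.0% of the window positions, and in 36.3% of CD4+ tumor cases pooled over the mice. These rest on 204 and 91 inner cysteines only. The triplet SCR, a serine and an arginine around the cysteine, made up 7.84% of cases in CD4+ tumors and is seen at position 5 of the largest CD4+ tumor clone of the class in mouse 5, shown above, and of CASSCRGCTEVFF, both of which used TRBV29. Clones of the class were slightly longer than others in all 4 mice of each group, with a mean of 14.3 ± 0.0448 against 14.1 ± 0.0144 residues in CD8+ tumors and 14.2 ± 0.197 against 13.9 ± 0.0343 in CD4+ tumors (SD, n = 4). A longer CDR3 has more window positions, so that a greater length follows in part from the rule. Per window position, the share in CD8+ tumors was 0.442% at 11 residues, 0.318% at 14, 0.380% at 16 and 0.269% at 17. When shares were standardised to the same CDR3 lengths in all groups, no difference in distinct clones between subsets or tissues changed its call.

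**Figure D4:**
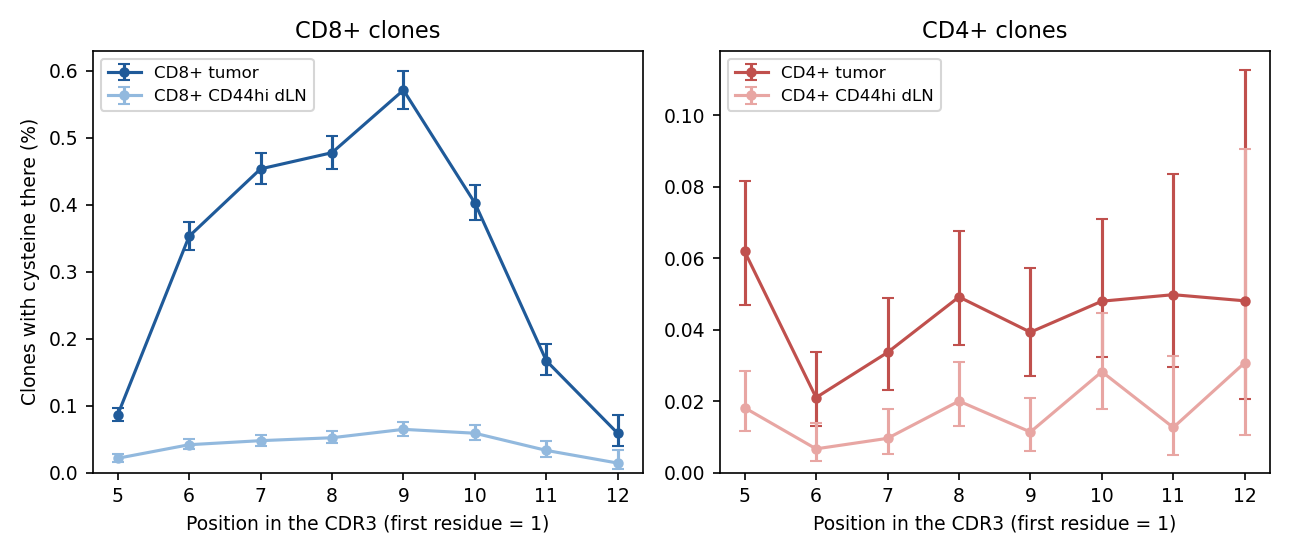
Percent of distinct clones with a cysteine at each CDR3 position, among clones long enough to have that position in the window, for CD8+ (left) and CD4+ (right) clones of the 4 mice together. Error bars are 95% Wilson intervals and cover counting error only, and the vertical scales of the panels differ. The CD8+ tumor curve peaks at position 9 with 0.571%.

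The codon of the inner cysteine often took bases from J. In CD8+ tumors 55.9% ± 1.58 of the codons were TGT, the rest TGC, and 67.5% ± 1.16 held at least 1 base that the deposited alignment assigned to the J segment (SD, n = 4). In CD4+ cells the share with at least 1 J base was 54.4% ± 13.6 in tumors and 56.0% ± 15.2 in dLNs (SD, n = 4), with 37.0% and 34.4% in the lowest mouse. In CD8+ tumors the last 2 bases alone came from J in 31.1% ± 1.31, the last base alone in 34.9% ± 1.29, and no base of the codon was assigned to any segment in 21.1% ± 1.16 (SD, n = 4). Codons read in full from J made up 1.53% ± 0.395, in full from D 1.28% ± 0.306 and in full from V 0.150% ± 0.117 (SD, n = 4). The alignment can assign to J bases that differ from the germline segment, so these origins are those of the deposited positions. All 38 clones of the class whose codon was read in full from V used TRBV22, a segment annotated as a pseudogene and below the 1% limit, of whose 212 clones 71 belonged to the class.

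TRBJ2-3 and TRBJ2-4 had the highest shares of codons with their last 2 bases assigned to J. In CD8+ tumors the last 2 bases of the codon came from J in 936 of 1209 TRBJ2-3 cases (77.4%) and in 944 of 1372 TRBJ2-4 cases (68.8%), and the codon was TGT in 91.1% and 86.3%. In the other J segments this held for 0% to 0.574% of cases, except TRBJ2-7 with 26.2%, whose germline start holds no GT that could supply these bases, so that its assignments are uncertain. The residue after the cysteine followed the J segment, with alanine in 78.9% of TRBJ2-3 and glutamine in 72.1% of TRBJ2-4 cases. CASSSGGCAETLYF, the largest CD8+ dLN clone of the class in mouse 8, and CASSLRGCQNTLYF show these 2 endings. In CD8+ dLNs the same origin was found in 67.8% of 118 TRBJ2-3 and 60.6% of 94 TRBJ2-4 cases.

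Glycine preceded the inner cysteine in 48.4% ± 0.564 of CD8+ tumor cases, against 21.6% ± 0.314 of window positions of other clones (SD, n = 4). The most common triplets around it were GCA and GCQ, with 11.4% and 11.2% of the 6858 cases, followed by GCS, GCT and GCN. In CD4+ tumors glycine preceded it in 37.4% ± 5.37 of cases, against 23.9% ± 0.258 of window positions of other clones (SD, n = 4), and GCE was the most common triplet with 10.8%. Glycine is the main residue that the D segments encode in their usual reading frame.

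Some clones of the class differed by 1 base from a clone of the same library, V, J and length that had at least 10 times the reads. Such near copies made up 1.49% ± 0.447 of the class and 1.47% ± 0.423 of others in CD8+ tumors, and 3.28% ± 1.58 against 1.42% ± 0.124 in CD8+ dLNs (SD, n = 4). In CD4+ cells they made up 6.63% ± 3.46 of the class against 1.84% ± 0.0564 of others in tumors and 15.5% ± 7.43 against 1.70% ± 0.180 in dLNs (SD, n = 4). In 16 of 16 cases in CD4+ tumors, 14 of 15 in CD4+ dLNs, 17 of 24 in CD8+ dLNs and 49 of 120 in CD8+ tumors, the larger clone had another residue in place of the cysteine. Without near copies the shares of distinct clones were 2.06% in CD8+ tumors, 0.253% in CD8+ dLNs, 0.219% in CD4+ tumors and 0.0689% in CD4+ dLNs, and the differences between tissues and subsets kept their calls.

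Cysteine was then set beside the other 19 residues in the same window, counted as the percent of clones of 10 or more residues that held the residue at least once. In CD8+ clones 11 of 20 residues were higher in all 4 tumor values than in all 4 dLN values (55%) and 6 of 20 lower (30%), so that a lack of overlap alone was common. The size differed. Cysteine was 8.12 ± 1.35 times as common in tumors as in dLNs, tryptophan 1.36 ± 0.0222 times and histidine 1.25 ± 0.0440 times, and the other residues lay between 0.838 and 1.14 times (SD, n = 4). Cysteine was the least common residue in CD8+ dLN clones, with methionine next at 1.16% ± 0.0541, whereas in CD8+ tumor clones it stood at 2.07% ± 0.160 against 1.16% ± 0.0190 for methionine (SD, n = 4). In CD4+ clones 10 of 20 residues were higher (50%) and 3 of 20 lower (15%), and cysteine, at 3.12 ± 1.74 times, was followed by histidine at 1.34 ± 0.0571 times (SD, n = 4).

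**Figure D5:**
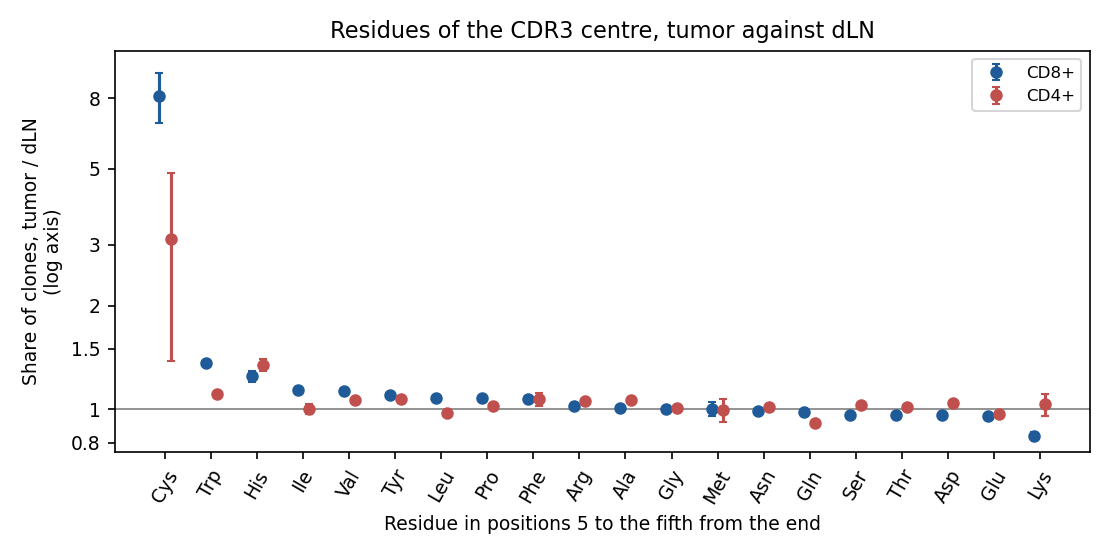
Ratio of tumor to dLN in the percent of distinct clones that held each residue in positions 5 to the fifth from the end, on a log axis. Points and error bars are the mean and SD of the ratios of 4 mice, and cysteine (Cys) lies at 8.12 in CD8+ and 3.12 in CD4+ clones, with every other residue between 0.838 and 1.36.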

How the data were processed

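TCRβ libraries of sorted T cells were made by template switching and nested PCR without molecular identifiers. The authors trimmed the reads with cutadapt 3.2, assembled productive clones against IMGT segments with error correction, and deposited, for every clone, a count of reads and the fraction it made up of its library. Libraries held 326582 to 4840722 deposited counts and were randomly thinned to 6 reads for each cell sorted, following the study's methods and cell numbers, since the deposited counts preceded that step. Intervals, and limits for a count of 0 (3 counts), cover counting error only. A clone was a V, J and CDR3 nucleotide sequence.

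Values per mouse were compared over all 70 splits of 4 against 4 (exact permutation test, two-sided, smallest p 0.02857), with Benjamini-Hochberg adjustment over 20 tests, of which 16 passed, or over the segments of a family. The mouse pairs the groups by its label. Deviations from the group mean correlated between the left and the right samples of a mouse (r = 0.540 for 16 pairs), and no libraries were identical. Segments needed 1% of clones. Named were the 3 highest and lowest V segments, the 2 highest and lowest J segments, the largest clone of the class per mouse and group, and up to 5 clonotypes found in most mice, ties broken by mean reads share. The sequences of a selection of these are printed. The members and lists were chosen with earlier results of these data known. Coordinates are those of GRCm38 (GENCODE M21), matched by symbol. The build of the reads was not given in the sources used here.

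Alternatives were the deposited reads, equal depth, read minimums of 2 and 6, amino acid clonotypes, 2 other windows, another denominator, removal of near copies, of clones from a mouse whose share was 100 or more times below that of another, and of clones of both subsets from the subset of lower share, library means, standardised lengths, the mouse as a block, and leaving out each mouse. Added after the data had been seen were the read-class weights, tumor clones only, another seed, tumor clones found in a dLN, and reads without the largest clone of the class. Code was tested on simulated data. Scripts ran in Python 3.11.15 with scipy 1.17.1, pandas 2.3.3, numpy 2.4.6 and matplotlib 3.10.9.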

Additional observations from a re-analysis of the deposited data

Results flagged for a closer look

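The CD4+ minus CD8+ difference in the share of distinct clones with an inner cysteine differed between tumors and dLNs by -1.65 percentage points, with every mouse on the same side (exact permutation test, p = 0.02857). The tumor cells were not gated on CD44 and the dLN cells were, so that tissue and gate cannot be told apart here.

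In the CD8+ tumor reads of mouse 7 the class held 0.656%, against 0.272% to 0.312% in the other 3 mice, a gap above the Dixon limit for 4 values. Of 40 sets of 4 values looked at, 3 passed this limit, all of them this same value, and chance passes about 1 in 20. The same mouse had 143007 CD8+ tumor clones, the most of the 4, and its share of distinct clones in the class, 2.23%, was close to the other mice.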

How the results depend on the processing

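Of 323 values recomputed with all 4 mice and no block, 306 kept their direction and their side of the threshold. Tumor clones that were also found in a dLN are themselves dLN clones, so that this choice draws the tumor minus dLN difference towards 0 and does not bear on it (-0.0207 percentage points in CD4+ cells, of reversed sign, and 0.0547 in CD8+ cells, neither past the threshold). The CD4+ tumor minus dLN difference in distinct clones no longer passed with central cysteines only (0.0422). The reads minus clones difference of CD4+ tumors no longer passed with the window from position 6 (-0.0794), central cysteines (-0.0390) or library means (-0.104). It became significant in CD4+ dLNs with the deposited reads (-0.0673), and in CD8+ dLNs with the deposited reads (-0.0944), amino acid clonotypes (-0.0881), another seed (-0.0754) and standardised lengths (-0.0747). The reads difference between subset differences passed with the window from position 6 (-0.185), with standardised lengths (-0.262) and without the largest clones of the class (-0.172), and the last setting also made the CD4+ tumor minus dLN difference in reads pass (0.0275). That last setting takes out clones by the reads that are compared, so its calls are a description only. For V segments in CD8+ cells the count was 13 with amino acid clonotypes and 12 with another seed, against 0, since the smallest adjusted p lay near the threshold. Differences that moved by over 1.5 times with no change of call included CD4+ tumor minus dLN in clones with the window from position 6 (0.0768) or library means (0.0958), CD4+ minus CD8+ in dLNs with central cysteines (-0.109 for clones, -0.0834 for reads), and, with amino acid clonotypes, sharing with another mouse (-16.4 in CD4+, -19.1 in CD8+) and of CD8+ tumor clones with a dLN (-11.3). With the read-class weights, sharing between both tumors moved to -9.23 in CD4+ and -2.99 in CD8+ cells, and CD4+ sharing with a dLN to -9.59. The cause of the other changes was not tested.

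Taking the mouse as a replicate block leaves 16 sign changes, and leaving out 1 mouse allows no p below 0.1, so under both none of the 16 differences that had passed could pass, and neither speaks to their stability. With the mouse as a block the values stayed as they were by construction. For distinct clones they were -1.83 for CD4+ minus CD8+ in tumors (-1.87 to -1.80 without single mice), -0.176 in dLNs (-0.193 to -0.162), 0.149 for tumor minus dLN in CD4+ (0.117 to 0.173) and 1.80 in CD8+ cells (1.74 to 1.88), and -1.65 for the difference between subset differences (-1.71 to -1.63). For reads they were -0.313 for CD4+ minus CD8+ in tumors (-0.360 to -0.213), -0.144 in dLNs (-0.167 to -0.131) and 0.196 for tumor minus dLN in CD8+ cells (0.103 without mouse 7 to 0.233). The CD4+ reads difference, not past the threshold, lay between 0.00644 without mouse 6 and 0.0409. Reads minus clones was -0.162 in CD4+ (-0.185 to -0.131) and -1.68 in CD8+ tumors (-1.72 to -1.63). Sharing, class minus others, was -17.6 (-18.9 to -16.9) and -4.60 (-4.80 to -4.40) for both tumors, -14.8 (-15.1 to -14.4) and -6.07 (-6.34 to -5.78) for a dLN, and -5.59 (-5.69 to -5.40) and -9.08 (-9.45 to -8.73) for another mouse, in CD4+ and CD8+ cells. The segment counts were recomputed in neither way. In CD4+ cells the class rests on 203 tumor and 89 dLN clones, which limits the position, segment and sharing values.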
